A study of Mus musculus with 4 samples.

Results

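Adipogenic transcription factors are the DNA-binding proteins that turn fibroblast-like progenitors into fat cells and keep the fat cell program running. Members were taken by gene symbol as Pparg, Cebpa, Cebpb, Cebpd, Klf15, Nr1h3, Rxra, Zfp423, Gata2 and Klf4, and all 10 were found among the 17335 genes of the expression table. Expression was measured by RNA-seq in gonadal white adipose tissue (gWAT) of female mice kept on a high-fat diet (HFD) for 18 weeks, an arm in which the study asked how loss of Dnmt1, the maintenance DNA methyltransferase, in adipocytes changed the tissue. The fl/fl controls were littermates homozygous for the Dnmt1-floxed allele with intact Dnmt1, and AD1KO mice carried that allele together with adiponectin-Cre, whose promoter is active mainly in mature adipocytes. RNA of 4 animals was pooled in equal amounts for each genotype and gave 1 library. Both groups were on HFD, the age was not given in the sources used here, and the tissue was whole fat, so progenitors and immune and vascular cells contributed RNA and were not targeted by the Cre. The series also holds bisulfite sequencing of other mice, not analysed here.

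In the classical order of fat cell differentiation, Klf4 and the C/EBP family members Cebpb and Cebpd come first, within hours of a hormonal stimulus, and Cebpb and Cebpd then turn on Pparg and Cebpa. Pparg, the nuclear receptor without which no adipocyte forms, binds DNA with its partner Rxra, and Pparg and Cebpa then hold each other on and occupy most genes of the mature adipocyte. Zfp423 marks cells committed to the white fat lineage and sustains Pparg in them, Klf15 acts late in differentiation and on nutrient metabolism, and Nr1h3 encodes the oxysterol receptor LXRα. Gata2 does the opposite and holds preadipocytes back. Several of the genes are used outside adipocytes as well, Gata2 in endothelial and mast cells, Cebpb and Nr1h3 in macrophages, and Klf4 in endothelial and smooth muscle cells.

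Since Dnmt1 copies methylation at CpG dinucleotides, the promoters of the members with the largest differences in expression are shown first, with each CpG in capitals. They are the 250 bases before the RefSeq transcription start, on the GRCm38.p6 assembly and in the sense of the gene, and no methylation was measured on them in these mice. Klf15 lies at chr6:90462326-90462575 on the plus strand and holds 37 CpG. Zfp423 is shown at the start with more CpG of its pair in the table, at chr8:87959596-87959845 on the minus strand, with 18 CpG.
Klf15 promoter: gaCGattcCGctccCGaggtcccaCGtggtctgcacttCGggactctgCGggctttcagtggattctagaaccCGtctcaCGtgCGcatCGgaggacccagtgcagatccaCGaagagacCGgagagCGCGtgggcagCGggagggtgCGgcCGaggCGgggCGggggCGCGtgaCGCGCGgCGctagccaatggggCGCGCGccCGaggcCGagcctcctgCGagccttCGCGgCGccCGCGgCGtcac
Zfp423 promoter: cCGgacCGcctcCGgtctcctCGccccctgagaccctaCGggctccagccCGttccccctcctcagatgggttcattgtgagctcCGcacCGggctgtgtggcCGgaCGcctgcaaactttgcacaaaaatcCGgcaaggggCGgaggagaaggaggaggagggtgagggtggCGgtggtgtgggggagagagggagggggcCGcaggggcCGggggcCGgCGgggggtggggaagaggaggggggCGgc

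Pparg is shown for contrast, at the most downstream of its 3 starts, chr6:115421816-115422065 on the plus strand, where the capitals mark instead the letters TTGCNNAA on either strand. TTGCNNAA is a loose form of the site bound by C/EBP proteins, which are known to act on Pparg.
Pparg promoter: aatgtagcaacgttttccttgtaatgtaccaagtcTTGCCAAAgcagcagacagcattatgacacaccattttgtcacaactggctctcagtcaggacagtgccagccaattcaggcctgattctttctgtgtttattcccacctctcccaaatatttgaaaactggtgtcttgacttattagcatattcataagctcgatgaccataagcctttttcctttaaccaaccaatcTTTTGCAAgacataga

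The whole window, which adds the first 50 bases of the transcript, held 2 CpG at this Pparg start, against 44 and 13 at the other Pparg starts. It held CCAAT at -144 and -22 and TTGCNNAA at -215 and -16, counted to the first letter from the transcription start. Of the 9 members with a window in the RefSeq table, all but Cebpd, 15 windows were listed, and they held a median of 29 CpG, where the median of all 32841 windows of 300 bases was 7. In all, 12 of the 15 were above that median. Cebpb (50 CpG), Klf15 (47), Klf4 (40), Gata2 (32 and 29) and Cebpa (29) were CpG-rich at every start listed, Nr1h3 was close to the overall median at both (10 and 8), Zfp423 had 7 and 21, and Rxra had 55 at one start and 1 at the other. Of these, Klf15 and Zfp423 were higher in AD1KO, and the difference of Cebpb between libraries was within counting error. Whether CpG content bears on any difference in expression was not tested.

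**Figure D1:**
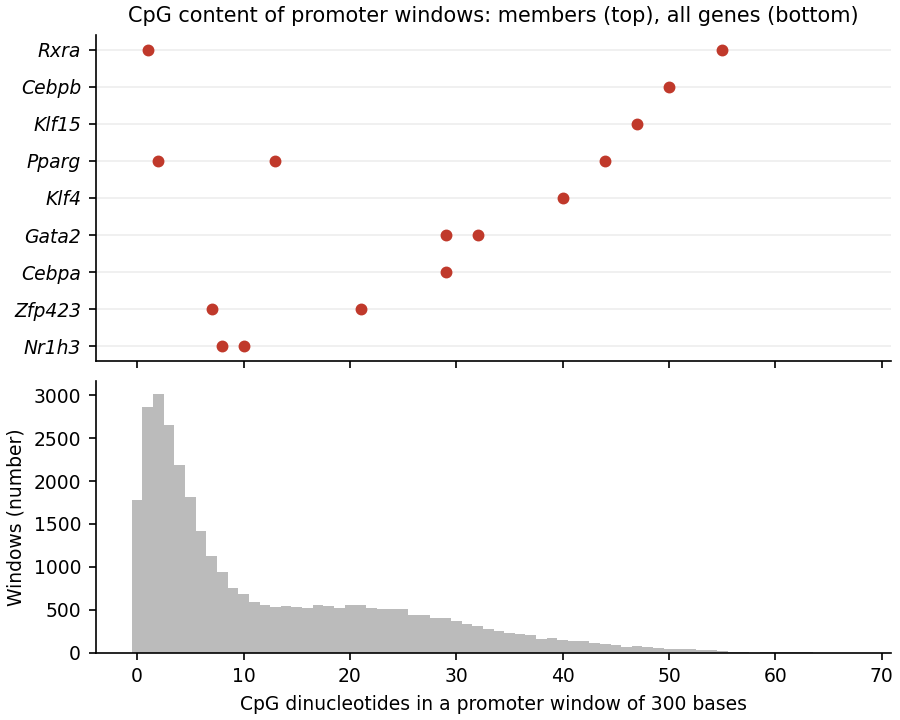
CpG dinucleotides in promoter windows of 300 bases (x axis, number per window). Top, each point is a RefSeq start of a member; bottom, bars count all 32841 windows of the table. Rxra and Pparg have both CpG-rich and CpG-poor starts, and Rxra has the highest count of the members, 55.

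The letters CCAAT occurred in 4 member windows, of Klf15 (at -62), Gata2 and Pparg, and in 37.4% of all windows, read on both strands. TTGCNNAA occurred in 2, of Pparg and Zfp423, and in 10.8% of all. TATAAA was present in 3, among them Cebpa at -30, and in 13.6% of all. AGGTCA, the core letters of nuclear receptor sites, was present in 4, of Pparg, Rxra and Zfp423, and in 16.3% of all. No matches overlapped in the member windows, and a match of letters is a description of the window only.

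Expression is given as FPKM, fragments scaled to transcript length and library size, a level per length that may be compared between genes. The ratio of the libraries, AD1KO over fl/fl, is on the scale log2(FPKM + 0.01). A gene counted as higher or lower at a log2 ratio of 0.5 or more in either direction, the limit of the study's methods. Reads behind each value were estimated from the FPKM steps and the gene length, at a fitted depth of 17500000 for the fl/fl library and 17420000 for the AD1KO library. The bracketed ranges are 95% counting intervals on these reads (exact Clopper-Pearson for ratios, exact Poisson for levels). They cover counting error only: with 1 pooled library per genotype there is no measure of the spread between animals, no test was possible, and each difference is one between libraries with no replicate check. Dnmt1 (gene 13433) was at 6.99 FPKM in fl/fl against 3.33 in AD1KO, a log2 ratio of -1.07 (-1.27 to -0.87), so the lower level lay in the library labelled AD1KO, although a value for the whole gene includes exons that are not floxed and cells that do not express the Cre.

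Among the 10 members, Klf15 and Zfp423 were higher in AD1KO, none was lower, and 8 fell short of the limit in either direction. By the same rule 14.3% of the 15839 tested genes were higher and 19.1% lower (2265 and 3029 genes, or 2790 and 2605 under upper quartile scaling, where the balance turned), so for a list of 10 the number higher is near the background and cannot be read as a property of the members as a group. The members' median log2 ratio was 0.24, beside -0.04 over all tested genes, and 7 of the 10 ratios were above 0. On the scale as deposited, counting error left 6 members above 0, Klf15, Zfp423, Pparg, Cebpa, Rxra and Nr1h3. It left 2 below 0, Klf4 and Cebpd, while the intervals of Cebpb and Gata2 held 0. These intervals do not cover the choice of scaling. Under upper quartile scaling the ratio of Cebpb was 0.14 and that of Klf4 -0.15. The members were well sampled, with between 297 and 20475 reads over both libraries, where the median tested gene had 569.

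**Figure D2:**
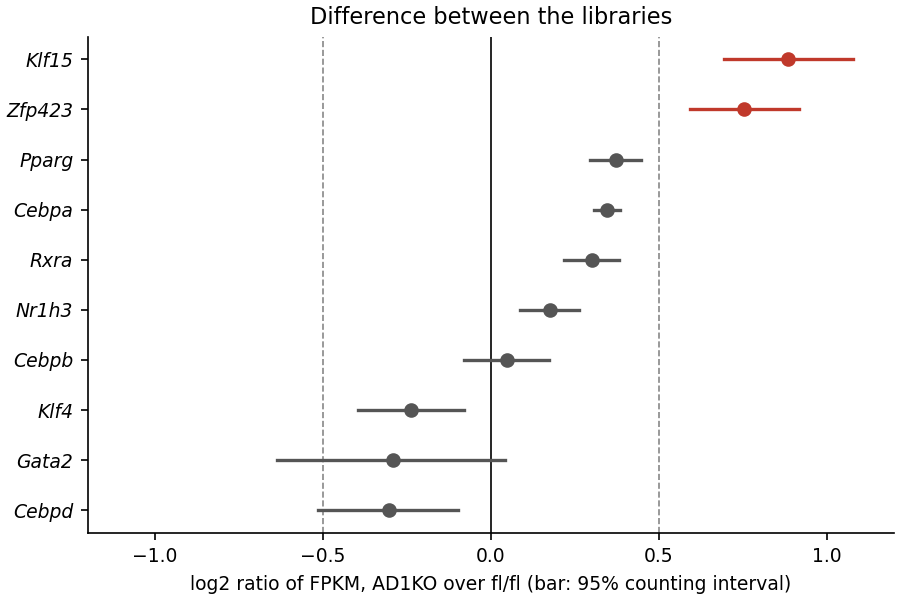
log2 ratio of AD1KO over fl/fl (x axis) for each of the 10 members, with 95% counting intervals as bars and the limit of 0.5 as dashed lines. The whole intervals of Klf15 (0.70 to 1.08) and Zfp423 (0.59 to 0.92) lie above the limit, and no member's ratio reaches -0.5.

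Pparg, its partner Rxra and Cebpa, which carry the program of the mature adipocyte, had ratios above 0 but under the limit, and Cebpa and Pparg were the most abundant members. Cebpa (gene 12606, chromosome 7 of mm9, 35904312 to 35906945, plus strand, a gene of 1 exon) was at 204.77 FPKM in fl/fl against 260.32 in AD1KO, from 9038 and 11437 reads. Its log2 ratio was 0.35 (0.31 to 0.39), which is 1.27-fold. This ratio, the most precisely counted of the members, lay wholly between 0 and the limit.

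Pparg (gene 19016, chromosome 6, 115311239 to 115440419, plus strand) had a level of 84.94 FPKM in fl/fl against 109.93 in AD1KO, a log2 ratio of 0.37 (0.30 to 0.45) from 2494 and 3213 reads. The table gives 1 value per gene, so transcripts from the separate starts of Pparg cannot be told apart. Its partner Rxra (gene 20181, chromosome 2, 27531960 to 27618477, plus strand) was at 25.77 FPKM in fl/fl against 31.73 in AD1KO, a log2 ratio of 0.30 (0.22 to 0.38). The level of Pparg was thus 3.30 times that of Rxra in fl/fl and 3.46 times in AD1KO, and Cebpa kept a level 2.41 and 2.37 times that of Pparg. The intervals of these 3 ratios overlapped one another, so counting error did not separate the differences of Pparg, Cebpa and Rxra.

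Nr1h3 (gene 22259, chromosome 2, 91024218 to 91042991, minus strand), the lipid-sensing receptor that also pairs with Rxra, was the next in abundance after Pparg. Its level was 67.31 FPKM in fl/fl against 76.00 in AD1KO, and its log2 ratio of 0.18 (0.09 to 0.26) was under that of Pparg, with no overlap of their intervals. Gm13783 and a small nuclear RNA gene overlap Nr1h3 in the annotation, and no source states whether reads were assigned by strand.

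Klf15 (gene 66277, chromosome 6, 90412570 to 90425232, plus strand), the late-acting Kruppel-like factor, differed most. It was at 8.51 FPKM in fl/fl against 15.72 in AD1KO, from 348 and 640 reads, a log2 ratio of 0.88 (0.70 to 1.08) or 1.85-fold. This placed Klf15 at the 93.2 percentile of the log2 ratios of all tested genes, and in the order of the members' levels it moved from rank 8 to rank 6. Klf4 (gene 16600, chromosome 4, 55540013 to 55545347, minus strand), an early member of the same family, went the other way, with 14.02 FPKM in fl/fl against 11.90 in AD1KO and a log2 ratio of -0.24 (-0.39 to -0.08). The level of Klf15 relative to Klf4 was therefore 0.607 in fl/fl and 1.32 in AD1KO, so the order of this pair was turned round.

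Zfp423 (gene 94187, chromosome 8, 90185709 to 90483494, minus strand), the zinc finger protein of committed preadipocytes, was the other member past the limit. Its level was 6.52 FPKM in fl/fl against 11.00 in AD1KO, from 498 and 836 reads, a log2 ratio of 0.75 (0.59 to 0.92) or 1.69-fold. Gata2 (gene 14461, chromosome 6, 88143885 to 88157024, plus strand), which restrains preadipocytes, was the least abundant member at 3.01 FPKM in fl/fl against 2.46 in AD1KO. It had 164 and 133 reads. The interval of its log2 ratio of -0.29 ran from -0.64 to 0.04 and held both 0 and the limit of -0.5, so at this depth neither could be told apart from the value. The level of Zfp423 relative to Gata2 was 2.17 in fl/fl and 4.47 in AD1KO. No interval was computed for this ratio, and it rests in part on the few reads of Gata2.

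The early C/EBP members had lower ratios than Cebpa, and none of the family passed the limit. Cebpb (gene 12608, chromosome 2, 167514415 to 167515918, plus strand, 1 exon) was at 40.81 FPKM in fl/fl against 42.17 in AD1KO, and its log2 ratio of 0.05 (-0.08 to 0.17) was within counting error of 0 and well inside the limit. Cebpb overlaps Tmem189 on the opposite strand, a gene at 54.54 and 44.85 FPKM, and without strand information reads of the pair could be shared. Cebpd (gene 12609, chromosome 16, 15887379 to 15888559, plus strand, typed as a pseudogene in the annotation used) was at 11.37 FPKM in fl/fl against 9.21 in AD1KO, the lowest ratio of the members at -0.30 (-0.51 to -0.10). Across the family the order of ratios was Cebpa above Cebpb above Cebpd, with no overlap between the intervals of Cebpa and the other two. Cebpa stood at 5.02 times the level of Cebpb in fl/fl and 6.17 times in AD1KO, and at 18.0 and 28.3 times that of Cebpd.

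**Figure D3:**
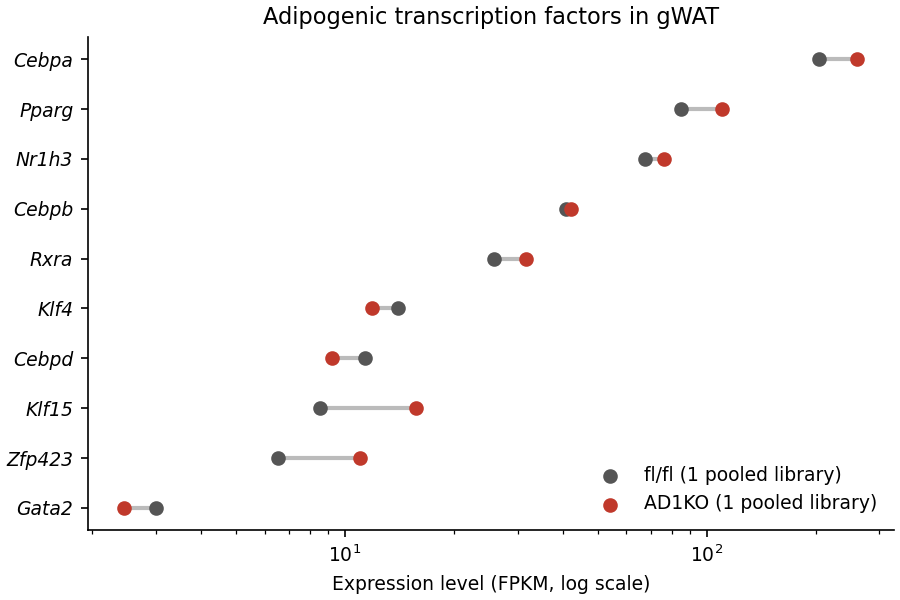
Level of each member in FPKM (log axis) in the fl/fl and AD1KO libraries, 1 pooled library each. Levels run from Gata2 (3.01 and 2.46 FPKM) to Cebpa (204.77 and 260.32 FPKM), and Klf15 and Zfp423 show the widest gap between libraries.

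The members' levels spanned a far wider range than the difference of any member between genotypes. In fl/fl it ran Cebpa, Pparg, Nr1h3, Cebpb, Rxra, Klf4, Cebpd, Klf15, Zfp423 and Gata2, and no neighbours had overlapping counting intervals. In AD1KO the first 5 kept their places and Gata2 stayed last, while Klf15 passed Klf4 and Cebpd, and Zfp423 passed Cebpd. Klf4 (11.90 FPKM, 10.97 to 12.88) and Zfp423 (11.00 FPKM, 10.27 to 11.77) were the only neighbours there that overlapped. Summed over the members the level was 467.03 FPKM in fl/fl against 570.44 in AD1KO, most of it from Cebpa and Pparg.

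**Figure D4:**
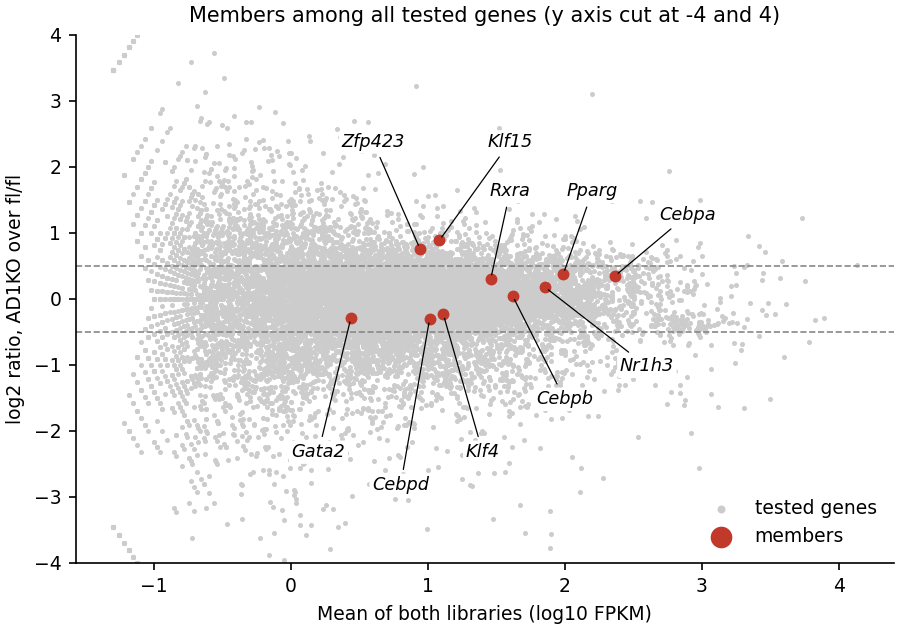
log2 ratio of AD1KO over fl/fl (y axis) against the mean level of both libraries (x axis, log10 FPKM) for the tested genes, with the members marked and dashed lines at the limit of 0.5. The y axis is drawn from -4 to 4 and 277 genes lie outside it; the members sit inside the cloud, with Klf15 and Zfp423 above the upper line.

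The genes that Pparg and Cebpa are known to drive in adipocytes were mostly higher in AD1KO, and most by more than Pparg and Cebpa themselves. Of 23 such target genes, 14 were higher and 2 lower, with a median log2 ratio of 0.54. Cfd, the secreted complement factor adipsin, was at 511 FPKM in fl/fl against 1441 in AD1KO (log2 ratio 1.50). Cidec, a lipid droplet protein, was at 1487 and 2885 FPKM (0.96), and Pck1, which supplies glycerol for triglyceride, at 152 and 276 FPKM (0.87). The 2 that were lower belong to thermogenic fat, Ucp1 (8.39 and 1.38 FPKM, log2 ratio -2.60) and Cidea (5.88 and 3.38 FPKM, -0.80). The other 21 had ratios from 0.14 to 1.50. Set beside the members, 18 of the 23 targets had a ratio above that of Pparg and 20 above that of Cebpa, while 2 were above that of Klf15 and 6 above that of Zfp423.

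The targets of LXR, the receptor encoded by Nr1h3, were mixed, with 2 of 10 higher, 2 lower and a median log2 ratio of 0.32. Fasn, which makes palmitate, was at 84.06 FPKM in fl/fl against 175.60 in AD1KO (log2 ratio 1.06), and Scd1, which desaturates it, at 1778 and 2538 FPKM (0.51). Abcg1 (35.43 and 18.54 FPKM, -0.93) and Apoe (3111 and 2110 FPKM, -0.56) were lower, and the other 6 fell short of the limit in either direction.

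The relatives of the members gave no common direction. Of the other PPAR, RXR and LXR genes, Rxrg (8.45 FPKM in fl/fl against 13.68 in AD1KO, log2 ratio 0.69) and Ppara (0.56 and 1.00 FPKM, 0.83) were higher among 5, with a median of -0.01. Among the other 13 tested Kruppel-like factor genes 2 were higher and 1 lower, with a median of -0.12. Klf14, a regulator of adipose gene expression, had a log2 ratio of 0.87 (3.46 and 6.35 FPKM), and Klf6, an early inducible member, -0.59 (43.53 and 28.83 FPKM). The other 4 C/EBP genes had a median of -0.09, with 1 higher at a level under 1 FPKM, and of the other 5 GATA genes 3 were lower and 1 higher. Of the GATA genes called, only Gata5 reached 1 FPKM (0.39 in fl/fl and 1.02 in AD1KO, log2 ratio 1.36), so the list's median of -0.73 rests on genes of few reads, and with a minimum of 1 FPKM it was 0.87.

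Wider lists of regulators, which share Klf5, Klf6, Klf9, Gata3, Klf2, Klf3, Klf7 and Ddit3 with the families above, gave no common direction either. Of 20 other pro-adipogenic regulators 3 were higher and 2 lower, with a median log2 ratio of 0.22. Klf5, among the higher, was under 1 FPKM in both libraries, with 6 and 16 reads. Bmp4, a signal that commits progenitors to the fat lineage, was at 2.93 FPKM in fl/fl against 5.58 in AD1KO (0.93), and Mlxipl, the carbohydrate-responsive factor of lipogenesis, at 8.92 and 13.30 FPKM (0.58). Egr2, an early partner of Klf4 in inducing Cebpb, was lower at 7.99 and 3.24 FPKM (-1.30). Of 23 anti-adipogenic regulators 6 were higher and 4 lower, with a median of -0.04. Those called but not described below were under 1 FPKM in both libraries, with at most 45 reads in either. Wwtr1, the coactivator TAZ (28.03 and 46.88 FPKM, 0.74), Foxo1, which insulin silences (11.62 and 17.39 FPKM, 0.58), and the orphan receptor Nr2f2 (3.53 and 5.28 FPKM, 0.58) were higher, and Runx2, the bone lineage factor (1.51 and 0.79 FPKM, -0.93), the growth factor Tgfb1 (101.11 and 56.35 FPKM, -0.84) and the interferon regulatory factor Irf4 (2.72 and 1.82 FPKM, -0.58) were lower. Of 16 coregulators of Pparg none was higher and 1 was lower, Ncoa3 (7.26 and 4.34 FPKM, -0.74), with a median of -0.08.

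Lists of genes that respond to stimuli were also looked at. All 18 immediate early genes had ratios below 0, with 10 lower, none higher and a median log2 ratio of -0.61. The early members Klf4 and Cebpd had ratios of the same sign but smaller in size than this median, and the ratio of Cebpb was not below 0. Fos was at 20.64 FPKM in fl/fl against 8.51 in AD1KO (log2 ratio -1.28), Atf3 at 71.50 and 30.74 FPKM (-1.22). Of 10 genes induced by glucocorticoids, which in culture raise Cebpd and Klf15, 2 were higher and 1 lower, with a median of 0.12. The 2 were the metallothioneins Mt1 (236 and 554 FPKM, 1.23) and Mt2 (231 and 639 FPKM, 1.47), which metals and inflammation also induce, and the lower one was Dusp1 (38.25 and 21.81 FPKM, -0.81).

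**Figure D5:**
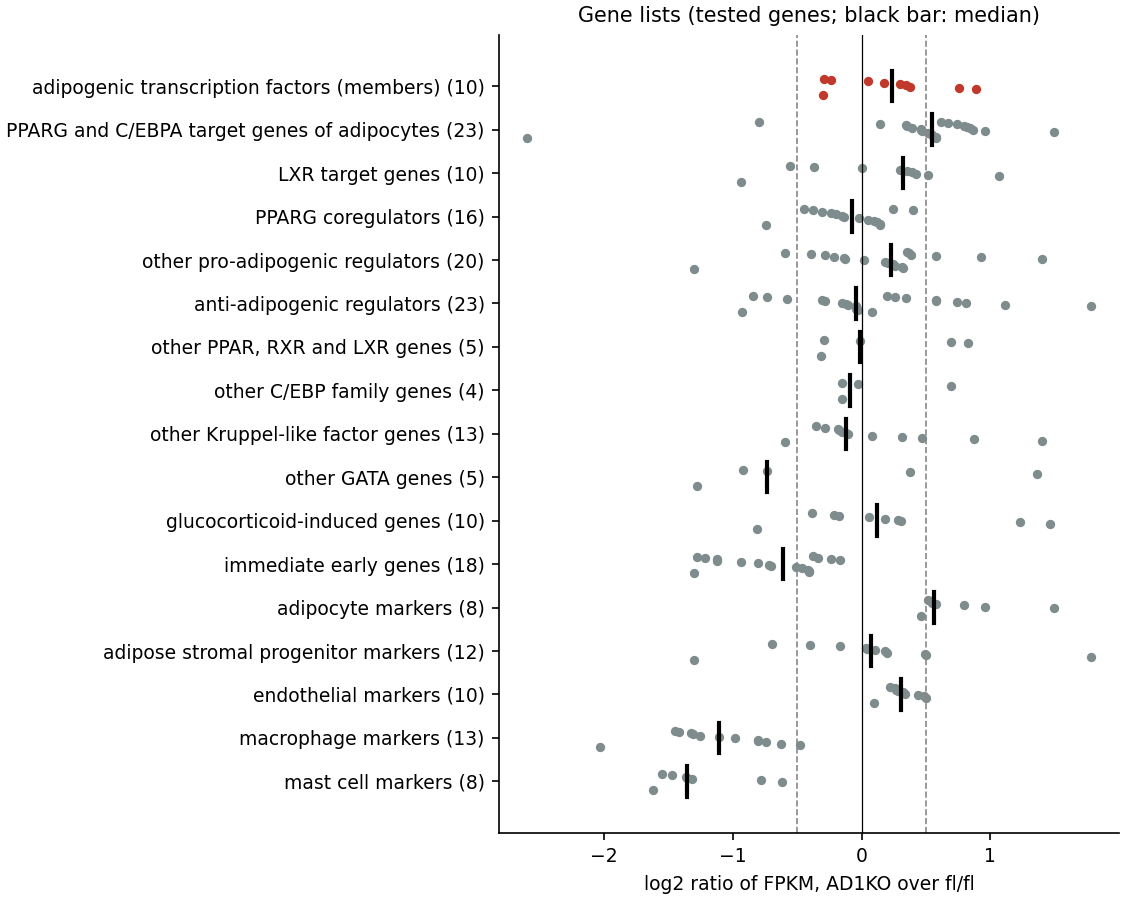
log2 ratios of AD1KO over fl/fl (x axis) for the genes of each list (rows, number of tested genes in brackets), with a point per gene, a black bar at the median and dashed lines at the limit of 0.5. The members have a median of 0.24, under that of the Pparg and Cebpa target genes (0.54), and the macrophage and mast cell markers all lie below 0.

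Markers of the cell types in whole fat also differed between the libraries. The 8 adipocyte markers, all of which are also among the 23 Pparg and Cebpa target genes and so are no separate evidence, were summed at 16961 FPKM in fl/fl against 26305 in AD1KO, with 7 higher, none at 0 and a median log2 ratio of 0.56, and the most abundant, Fabp4, was at 11151 and 15920 FPKM. In bulk tissue, fewer cells of a type and less RNA per cell cannot be told apart. Relative to this median, Klf15 was 0.32 and Zfp423 0.19 higher on the log2 scale, Pparg -0.19, Cebpa -0.21, Rxra -0.26, Nr1h3 -0.38 and Cebpb -0.51. Klf4, Gata2 and Cebpd were from -0.80 to -0.86 relative to it.

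Markers of immune cells were lower. Of 13 macrophage markers 12 were lower (summed 7214 FPKM in fl/fl against 3140 in AD1KO, median log2 ratio -1.11), as were all 8 mast cell markers (381 and 140 FPKM, -1.36), all 8 T cell markers (median -1.61) and 3 of 6 B cell markers (-0.45). Gata2 is also made by mast and endothelial cells, Cebpb and Nr1h3 by macrophages, and Klf4 by endothelial and smooth muscle cells. The 12 stromal progenitor markers, of the cells in which Zfp423 is known, were summed at 2049 and 2002 FPKM with a median of 0.08, 2 higher and 2 lower, against 0.75 for Zfp423. The endothelial markers had 1 of 10 higher (166 and 202 FPKM, median 0.30). Smooth muscle markers (5 of 7 higher, median 0.89) and mesothelial markers (6 of 7 higher, 0.76) were higher, and brown fat markers were mixed (2 of 7 higher, 2 lower, 0.12). Of neutrophil markers 4 of 7 tested were higher and 2 lower, and Mpo was listed at 0 in fl/fl. Apart from the most abundant, S100a8, the higher ones rested on at most 15 reads in either library. Reproductive tract epithelial markers, which gauge carry-over from the reproductive tract, were lower for 5 of 8 (median -2.30), and Pax8 was listed at 0 in AD1KO. The most abundant of them, Krt7, was not lower (7.64 FPKM in fl/fl against 10.25 in AD1KO). None of these lists was at 0 as a whole, and the part of cell composition in the members' values was not tested.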

How the data were processed

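RNA-seq libraries of gWAT from fl/fl and AD1KO mice were compared, 1 pooled library of 4 animals each. Per the labels, poly(A) RNA was sequenced on a BGISEQ-500 instrument. Per the study's methods, the sequencing service aligned clean reads to mouse mm9, and the authors deposited 1 table of both libraries with expression as FPKM and 0 written as 0.01. The aligner, the quantifying program and the use of strand are not given in the sources used here. The table also holds the authors' own fold changes, FDR and P-values for the comparison, which were not used. The plan allowed for counts or FPKM, and since the table holds FPKM no count test was run.

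Values of 0.01 were set back to 0. A gene was tested where either library reached 0.1 FPKM, 15839 of 17335, and a log2 ratio of (FPKM + 0.01) of 0.5 or more in either direction was called, which understates the change of genes near 0.01 FPKM. FPKM holds no depth as such, so depth and 1 shared length correction of 114 bases were fitted to the whole-read steps of 297 (fl/fl) and 310 (AD1KO) genes with few reads, of which 73.7% and 68.7% lay within 0.1 of a whole read. Reads then summed to 17662318 and 17550236. The table has no molecular identifiers, so intervals cover counting error only. In fl/fl 726 genes were at 0 and in AD1KO 730. The fit of depth, the calls and the intervals were tested on simulated reads that held counting error only. The intervals were tested at the simulated depth and length correction, not at fitted ones.

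The members and the gene lists were chosen with earlier results of these data known. Named are all 10 members, Dnmt1, the genes of each pathway list with at least 1 FPKM that had the 3 highest and the 3 lowest log2 ratios past the limit, and of each marker list the most abundant gene or those listed at 0. Not every gene that this rule allows is printed. Genes were matched by symbol. Positions are from GENCODE vM1 on mm9 and promoter windows from RefSeq on GRCm38.p6, and the searches for TTGCNNAA and AGGTCA were chosen after seeing the data. The planned comparison of proteins was not done. Alternatives were other scalings, pseudocounts, filters and limits. Tools were pandas 2.3.3, SciPy 1.17.1 and NumPy 2.4.6 under Python 3.11.15, with Matplotlib 3.10.9 for plots.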

Additional observations from a re-analysis of the deposited data

How the results depend on the processing

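Each member kept the sign of its log2 ratio under the 3 other scalings, the only alternatives that could have changed it. A pseudocount added to both libraries cannot turn a sign, and a filter leaves a ratio as it is. Over the 7 alternatives that give a value, ranges were 0.81 to 0.97 for Klf15 and 0.67 to 0.84 for Zfp423. They were 0.37 to 0.46 for Pparg, 0.34 to 0.44 for Cebpa, 0.05 to 0.14 for Cebpb and -0.30 to -0.21 for Cebpd. Klf15 and Zfp423 were called under all 7 of these alternatives and with the whole counting interval past 0.5. At a limit of 1 the number of members called higher was 0. Over all genes a pseudocount of 1 FPKM gave 1661 lower and 965 higher, a minimum of 1 FPKM left 1281 higher, a limit of 1 gave 1417 lower and 910 higher, and requiring the whole interval past 0.5 gave 1314 lower and 662 higher, each by construction a stricter rule. Upper quartile scaling gave 2605 lower and 2790 higher, against 3029 and 2265 as deposited, so the side with more calls turned, while the other 2 scalings kept more lower (2787 and 2801) than higher (2512 and 2493). The medians of the other PPAR, RXR and LXR genes and of the anti-adipogenic regulators, both near 0, turned positive under all 3 scalings (0.03 to 0.08 and 0.00 to 0.05), and that of the coregulators under upper quartile scaling (0.01). No paired analysis was possible because each genotype has 1 library.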

Other observations

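The members were also placed among all genes that the table annotates as sequence-specific DNA-binding transcription factors, a set chosen after the data were seen. Of 497 such genes tested, 59 were higher and 92 lower in AD1KO, with a median log2 ratio of -0.08, and 6 members carry the term. Pparg, Cebpb, Klf4 and Zfp423 do not carry it, so the annotation is incomplete and the ranks hold only among the annotated genes. Ordered by level, Cebpa was at rank 2 in both libraries, after Nme2, a kinase that carries the same term (348 FPKM in fl/fl and 316 in AD1KO). Nr1h3 was at rank 18 in fl/fl and 14 in AD1KO, Rxra at 53 and 40, and Klf15 at 150 and 79. Cebpd (116 and 134) and Gata2 (275 and 291) moved down the order. By log2 ratio Klf15 was at the 96.2 percentile of the set and Cebpa at the 83.3 percentile.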
